A study of Hordeum vulgare with 2 samples.

Results

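The small RNA families miR812, miR1120, miR1122, miR1439, miR1862, miR5049 and miR5175 are described here as the 7 repeat-like families, a working name, since their letters were not compared with a repeat database. Their records were taken by the family number in the small RNA name, which gave 37 names, 4 of mature miRNAs and 33 of hairpin arms, 18 to 24 nt long. In the ZD9 list they held 421 of 15544 records with values (2.71%), on 180 of 2430 genes and 333 transcripts. In the whole XZ153 list they held 911 of 40424 records (2.25%), on 486 of 9317 genes and 795 transcripts. Together the lists named 610 genes. The families were chosen by their low Allen scores and gene counts in these same lists, so pairing and counts are given as a description and without a test.

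Each library was 1 sample of barley (Hordeum vulgare) shoots, of the cultivar ZD9 or XZ153, from a study of low potassium in wild (Tibetan) and cultivated barley. No treatment is tied to a library in the labels: seedlings were grown in hydroponics at 0.01 mM or 1 mM potassium, and the level behind either library is not stated. Tissue markers could not be checked, because the lists hold cleavage sites and no expression values. With 1 library per cultivar no difference between ZD9 and XZ153 has a replicate check, and intervals below are exact 95% intervals that cover counting error only. The ZD9 values stop partway through the transcript IDs, so XZ153 is also given over the same ID range, where it has 170 of 8350 records of these families on 95 of 1976 genes. Gene names and genome positions are not given, since the HORVU identifiers of the lists are not annotated in the sources used here, and positions are counted along the transcript.

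A plant miRNA pairs with a transcript along nearly its whole length, and its Argonaute protein cuts the transcript opposite the middle of the small RNA. In degradome sequencing, fragments without a cap are read from their 5′ end, and such a cut appears as reads that start at one nucleotide. The deposited Allen score is a penalty for mismatches, 0 for full pairing, and a site at 2.5 or less is called well paired here. The deposited category runs from 0, the single highest position of its transcript, to 4, a position with 1 read. Several miRNA families of grasses are known to be annotated within miniature inverted-repeat transposable elements, short elements with inverted ends that occur in and near many genes. Stowaway-type elements of grasses are known for ends that hold the letters CUCCCUCCGU, written here as RNA.

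The small RNA letters show which families share stretches with one another and which do not. The first group below shares 1 seed (bases 2 to 8, in capitals) between miR5049 and miR5175, and the second shares 1 seed between miR1439 and miR1862. The third holds a miR1439, a miR812 and a miR1120 form that all contain acggag, at the very end in miR1120 only, and the fourth holds a miR1122 arm and a miR812 arm from the opposite strand. Prefixes mark the species of the reference hairpin (hvu, barley; osa, rice; bdi, Brachypodium; far, tall fescue).
hvu-MIR5049d-p5_1ss19AT_2: aUUUAGGAacggagggagua
hvu-MIR5049d-p5_2ss12GA19AT: aUUUAGGAacgaagggaguau
bdi-MIR5175a-p5_1ss18AG: aUUUAGGAacggagggaguac
osa-MIR1439-p5_1ss17TG: aUAUUUUGgaacggagggagu
osa-MIR1862d-p3: uUAUUUUGggacggagggagu
osa-MIR1439-p5_2ss10TA20TG_2: cUUAUAUUuaggaacggagggagu
osa-MIR812q-p3_1ss21TG: cACUUAUUuugggacggagggagu
hvu-miR1120_L-3: uUCUUAUAuuaugggacggag
far-MIR1122-p3_2ss21TG23TG: aAAGUUGAgacacuuauuuuggga
osa-MIR812a-p5_2ss20CT21AC: cUCCGUCCcaaaauaaguguc
These 37 names carry 27 different seeds, and only the 2 seeds shown first and second are shared between families.

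Outside the seed the likeness is wider. The letters ACGGAG, whose complement is CUCCGU, occur in 18 of the 37 names and in 6 of the 7 families, miR1122 being the exception. Among the 841 other names of both lists they occur in 4 (0.476%), which are 2 forms of osa-MIR818d-p3, 1 of hvu-MIR1436-p3 and 1 of lja-MIR11168-p3. A run of at least 12 nt is shared with a name of another of the 7 families by 19 names, and with the reverse complement of such a name by 11. Counting either strand, 23 names are linked in this way and 14 are not. The longest shared runs are 21 nt between miR1439 and miR5049, 21 nt between miR812 and miR1862, and 20 nt between miR5049 and miR5175. The miR1120 name shares at most 10 nt with any other family. An arm of miR1122 (far-MIR1122-p3_1ss13CG) is, over 19 nt, the reverse complement of a miR5049 arm (hvu-MIR5049c-p5_2ss7AC17CT).

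The best paired sites carry the complementary letters on the transcript side. The 5 sites below are shown because each is the fully paired site with the lowest p-value of its family in ZD9. CUCCCU and CUCCGU are in capitals, and in the longer form they overlap by the letters CU.
HORVU2Hr1G027160 with miR1439: aCUCCCUCCGUuccuaaauauaag
HORVU2Hr1G027160 with miR5049: uaCUCCCUCCGUuccuaaau
HORVU1Hr1G027600 with miR5175: guaCUCCCUCCGUuccuaaau
HORVU2Hr1G029220 with miR1862: auaCUCCCUCCGUcccaaaau
HORVU1Hr1G067480 with miR1122: ucccaaaauaagugucucaacuuu
The miR1439, miR5049 and miR5175 sites hold the same letters in shifted windows, and the miR1122 site lacks the motif.

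Families differed in how many genes they marked and how well they paired. miR5049 (15 names) marked the most genes in ZD9, 69, of which 9 had a well-paired site, and miR812 followed with 57 genes, of which 3 were well paired. miR1862 marked 40 genes (5 well paired), miR1439 28 (13 well paired), miR1122 19 (4 well paired), miR1120 11 (0 well paired) and miR5175 7 (5 well paired). The share with a well-paired site was therefore 46.4% for miR1439 (27.5 to 66.1%) and 71.4% for miR5175 (29.0 to 96.3%), against 5.26% for miR812 (1.10 to 14.6%). Most miR812 records came from 1 small RNA, the 18-nt osa-MIR812t-p3_2ss11TA18AT, of which 94.4% of bases are A or U. It supplied 63 of the 109 miR812 records of ZD9, on 33 genes, with no well-paired site.

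In the longer XZ153 list miR5175 and miR1439 again had the highest well-paired shares. miR5049 marked the most genes (24 well paired, 14.5%), followed by miR1862 with 127 (25), miR812 with 112 (6), miR1122 64 (12), miR1439 64 (25), miR1120 20 (1) and miR5175 11 (6). The well-paired share was 39.1% for miR1439 (27.1 to 52.1%), 19.7% for miR1862 (13.2 to 27.7%) and 5.36% for miR812 (1.99 to 11.3%). Over the ID range of the ZD9 list, miR5175 had 7 genes in ZD9 and none in XZ153. A count of 0 was taken to allow up to 3, a fixed working limit and not an exact interval. A stretch can also be listed under only 1 of several names that fit it. On HORVU5Hr1G082630 isoform 11 in XZ153, the full complement of bdi-MIR5175a-p5_1ss18AG is listed at position 789 under a miR5049 arm only. Gene counts per family therefore depend on which name was listed, and how names were kept is not stated. Counts of genes were lower in XZ153 for every family over that range, as were the records of all other names (8180 against 15123).

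**Figure D1:**
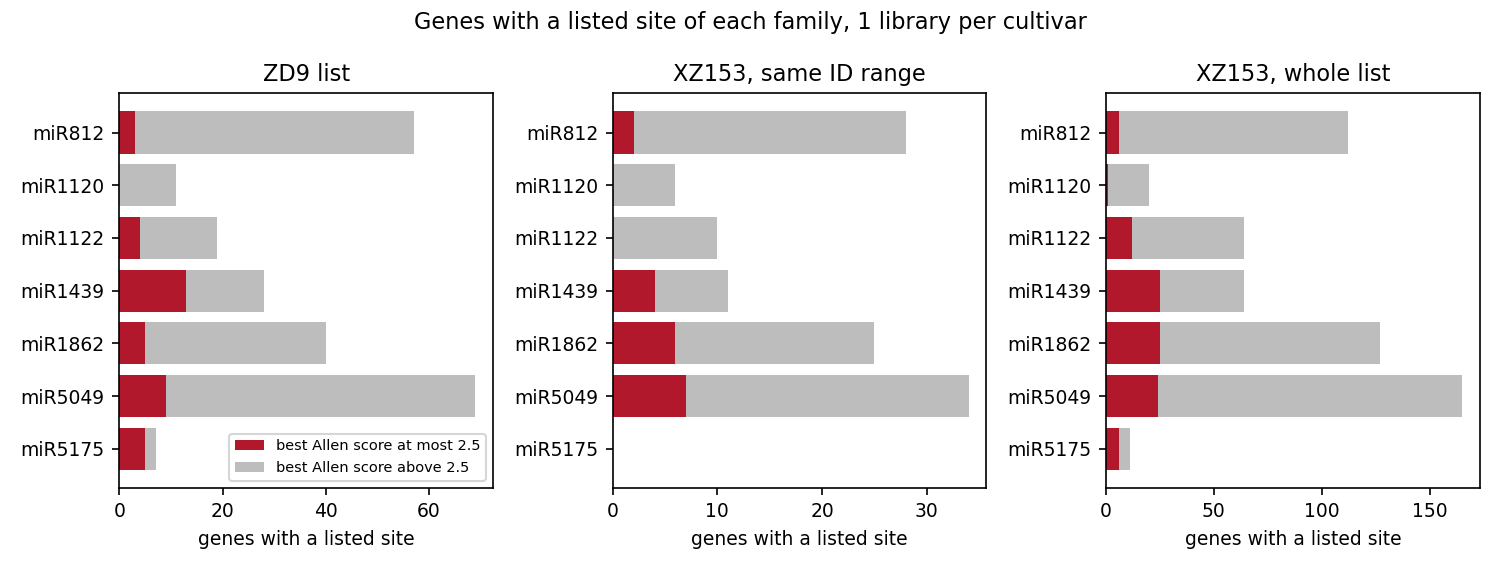
Number of genes (x axis) with a listed site of each of the 7 families (y axis), for the ZD9 list, XZ153 over the same transcript ID range and the whole XZ153 list. Red marks genes whose best Allen score is at most 2.5 and grey the others; miR1439 and miR5175 have the longest red part relative to their bar, 13 of 28 and 5 of 7 genes in ZD9.

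The families differed from other names in the tail of closely paired sites and not in the middle of the distribution. The median best Allen score of their family and gene pairs was 8 in ZD9, 7.5 over the shared range of XZ153 and 8 in its whole list, against 8, 8.5 and 8.5 for all other names. Of their 231 family and gene pairs in ZD9, 39 were well paired (16.9%, 12.3 to 22.3%), against 0.58% of the pairs of all other names and 0.968% of the pairs of a comparison set of conserved families. XZ153 gave 16.7% over the shared ID range (10.3 to 24.8%) against 0.709% and 1.31%. Its whole list gave 99 of 563 pairs, 17.6% (14.5 to 20.99%), against 0.544% and 1.16%. The repeat-like families thus made up 3.24% of all family and gene pairs of ZD9 but 49.4% of the well-paired ones, 39 of 79. At full pairing they made up 19 of 22 pairs in ZD9 and 27 of 45 in the whole XZ153 list. These shares were known when the families were chosen and are no independent finding.

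Around the limit of 2.5 there was no gap. In ZD9 the best Allen score was 2.5 on 1 gene and 3 on 5 genes, and in the whole XZ153 list it was 2.5 on 4 genes and 3 on 13. A few low scores rest on shortened alignments: 7 ZD9 records and 3 XZ153 records, all of these families, show only part of the small RNA, and all 10 count as well paired. Of these, 5 are sites of osa-MIR1439-p5_2ss10TA20TG_1 on isoforms of HORVU1Hr1G025690, with 12 listed target bases, Allen score 0 and a minimum free energy ratio of 0.70. Without them 27 in place of 28 ZD9 genes, and 78 in place of 81 XZ153 genes, had a well-paired site.

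Most of the well-paired genes were genes of names with ACGGAG. In ZD9 they marked 98 genes, 24 of them well paired (24.5%, 16.4 to 34.2%), while the names without it marked 93 genes, 6 of them well paired (6.45%, 2.40 to 13.5%). The whole XZ153 list gave 24.7% of 279 genes (19.8 to 30.2%) and 9.75% of 236 genes (6.28 to 14.3%). Mature forms had few well-paired genes, but also few genes. hvu-miR1120_L-3, hvu-miR5049b_L+1R-1, hvu-miR5049c_L-2_1ss6AG and hvu-miR5049e together marked 29 ZD9 genes, of which 1 was well paired (3.45%, 0.0873 to 17.8%), against 17.0% of the genes of hairpin arms (11.6 to 23.6%). In the whole XZ153 list 5 of 64 genes of the mature forms were well paired (7.81%, 2.59 to 17.3%), against 17.7% (14.3 to 21.6%). These intervals overlap in both lists.

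The motif itself was counted over distinct target sites of each gene. CUCCGU was present in 89 of 256 sites of the repeat-like families in ZD9 (34.8%, 28.9 to 40.9%) and in 161 of 615 in the whole XZ153 list (26.2%, 22.7 to 29.8%). Sites of all other names held it in 0.743% and 0.547%. CUCCCU was present in 27.0% of the ZD9 sites of these families against 2.07% of the others, and both motifs together in 17.6% against 0.171%. On the opposite strand, ACGGAG was present in 1 ZD9 site and 6 XZ153 sites of the families, all 6 of miR812. Nearly all of this goes with the small RNA letters, to which the sites pair: 88 of the 163 ZD9 sites of names with ACGGAG held CUCCGU (54.0%), and 1 of the 94 sites of names without it (1.06%). In the whole XZ153 list it was 42.5% of 367 sites and 2.02% of 248. The motif in the sites is therefore no evidence apart from the sequences of the names.

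**Figure D2:**
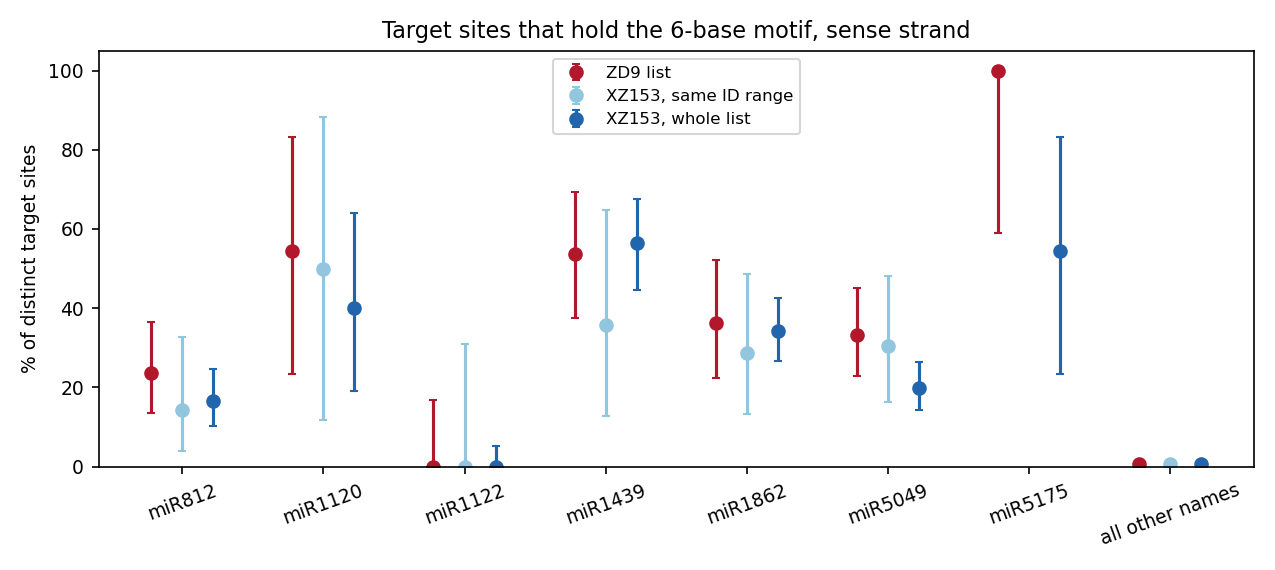
Share of distinct target sites that hold CUCCGU on the transcript strand (y axis, percent) for each family and for all other names (x axis), with exact 95% binomial intervals. Sites of miR1122 held none in any list, all 7 miR5175 sites of ZD9 held it, and all other names stayed under 1%.

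Identical letters recurred over genes. The string aCUCCCUCCGUuccuaaauauaag, the full complement of osa-MIR1439-p5_2ss10TA20TG_2, was a site in 6 ZD9 genes and in 4 genes of the whole XZ153 list. The miR5175 string guaCUCCCUCCGUuccuaaau was a site in 4 ZD9 genes. Of all well-paired site strings of the families, 18.4% were found in 2 or more genes in ZD9 (7.74 to 34.3%) and 16.5% in the whole XZ153 list (9.73 to 25.4%). Conserved families gave 15.0% and 20.0%, and all other names, which include them, 23.2% and 22.6%. Over the shared range of XZ153 it was 5.56% (0.141 to 27.3%), against 11.1% and 27.8%. The intervals overlap those of the repeat-like families in each case. Recurring letters are thus not particular to the repeat-like families. How reads from identical stretches were assigned to transcripts is not stated, and its part in the read counts was not tested.

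Few well-paired sites were the highest position of their transcript. Of the 39 well-paired pairs of ZD9, 3 had a category 0 site (7.69%, 1.62 to 20.9%), against 4 of 22 for the conserved families (18.2%, 5.19 to 40.3%). All other names had 4 of 40 in ZD9 (interval 2.79 to 23.7%), a share near that of the repeat-like families. In the whole XZ153 list 6 of 99 did (6.06%, 2.26 to 12.7%), against 25 of 87 for the conserved families (28.7%, 19.5 to 39.4%) and 27 of 120 for all other names (22.5%, 15.4 to 31.0%). Over the shared range of XZ153 it was 0 of 19 (up to 17.6%) against 4 of 21 for the conserved families (19.0%, 5.45 to 41.9%). All other names had 5 of 33 there (15.2%, 5.11 to 31.9%). The intervals of the repeat-like and the conserved families do not overlap in the whole XZ153 list, whereas they do in ZD9 and over the shared range. The same holds for the repeat-like families and all other names. However, all other names include the conserved families, so the comparisons are not separate. In the whole XZ153 list the conserved families supply 25 of the 27 category 0 pairs and 87 of the 120 well-paired pairs. In ZD9 they supply all 4 category 0 pairs. Names outside both groups thus also have few, and the low share is not shown to be particular to the repeat-like families. Pairs count a stretch once for each family that marks it, so they are not independent. By gene, 2 of 28 well-paired genes of the repeat-like families had such a site in ZD9 (7.14%, 0.877 to 23.5%). In the whole XZ153 list it was 6 of 81 (7.41%, 2.77 to 15.4%). Over all pairs, well paired or not, category 0 was reached by 7 of 231 pairs in ZD9 (3.03%), where the share over all names was 2.41%. It was reached by 2 of 114 over the shared range of XZ153 (1.75%, all names 2.1%) and by 17 of 563 in its whole list (3.02%, all names 2.13%). Each of these shares lies near that of all names. A best category of 4, a single read, was found for 62.8% of the ZD9 pairs and 74.6% of the XZ153 pairs, against 61.2% and 73.3% of all names.

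**Figure D3:**
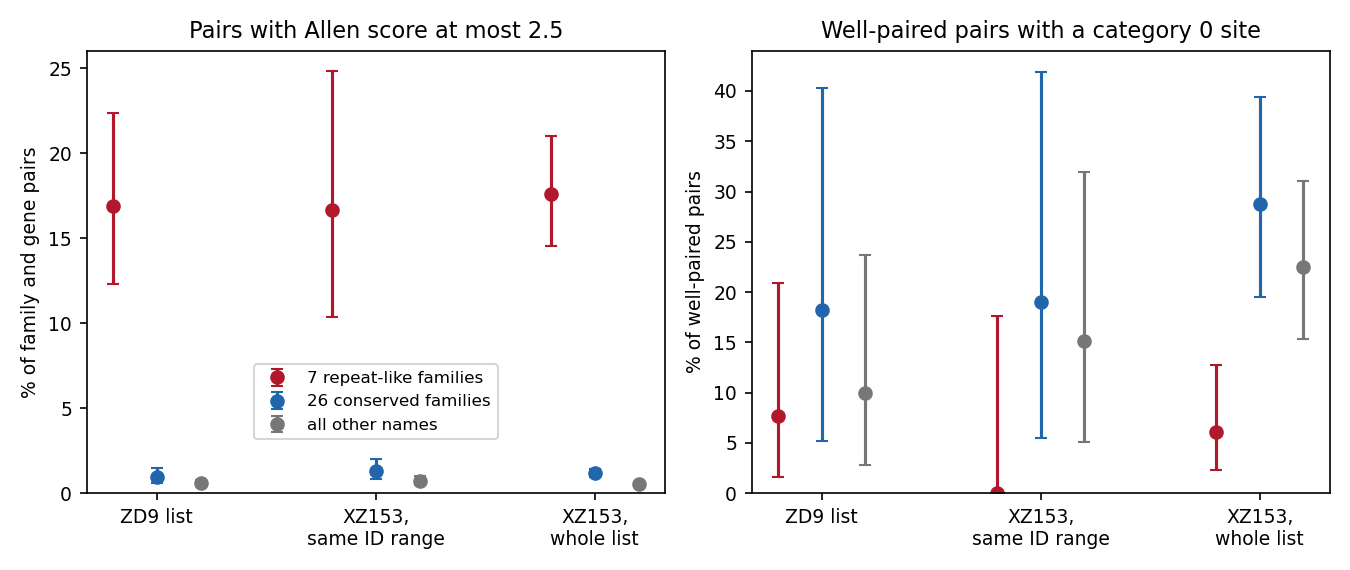
Left, share of family and gene pairs with an Allen score of at most 2.5; right, share of those well-paired pairs that have a category 0 site (y axes, percent; x axis, list), with exact 95% binomial intervals. The repeat-like families (red) are highest on the left, 16.7 to 17.6%, and lowest of the groups shown on the right, 0 to 7.69%. All other names include the conserved families, which supply most of their category 0 pairs.

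Few sites met the criterion for support, category 0 to 2 with a deposited, unadjusted p-value of at most 0.05. ZD9 had 1 such pair of 231, where the share over all names was 0.337%. XZ153 had none of 114 over the shared range (all names 0.755%), and 6 of 563 in its whole list (all names 0.615%). The counts are too small to set apart from those shares. By gene, names with ACGGAG had 1 supported gene in ZD9 and 1 in the whole XZ153 list. Names without ACGGAG had 0 and 5, so support did not follow the split seen for pairing.

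The ZD9 site was that of miR1439 on HORVU2Hr1G027160, the string printed above. On isoform 21 the cut at position 464 had 2 reads, category 0 and a p-value of 0.0478. Isoform 19 also had 2 reads and category 0, at position 350, with a p-value of 0.0588. The same site on isoforms 1, 10, 11 and 14 had 1 read each and p-values of 0.976 to 1.00. The call thus rests on 2 reads and on the isoform. On isoform 11 the overlapping miR5049 site at position 550 had 2 reads, category 0 and a p-value of 0.108.

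Of the 6 supported XZ153 pairs, 3 were of the well-paired kind at category 0. The listed position of an arm of miR1862 was 1414 on HORVU3Hr1G087940 isoform 6 (Allen 0.5, deposited p-value 0.00612), while isoform 1 had a single read there (deposited p-value 0.333). For an arm of miR1122 it was 1764 on HORVU2Hr1G055640 isoform 5 (Allen 0.5, deposited p-value 0.00680). For an arm of miR1439 it was 1966 on HORVU2Hr1G044640 isoform 4 (Allen 0, deposited p-value 0.0234), with the same site letters as in HORVU2Hr1G027160. The other two category 0 pairs were less well paired: miR1122 on HORVU7Hr1G008680 isoform 14 at 888 (Allen 3.5, deposited p-value 0.0232) and miR5049 on HORVU2Hr1G075670 isoform 1 at 3807 (Allen 4.5, deposited p-value 0.0247). No raw read count was used for XZ153, so the depth behind these calls is unknown, and which small RNA, if any, made these ends was not tested.

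The sixth pair belongs to the opposite-strand arm of miR812. On HORVU7Hr1G055340 isoform 1, osa-MIR812a-p5_2ss20CT21AC paired fully at position 2645 (category 1, deposited p-value 0.0392). Its site and the nearest site of another family on that transcript are printed here because the first holds ACGGAG, the motif of the opposite strand.
HORVU7Hr1G055340 with miR812a: gacacuuauuuugggacggag
HORVU7Hr1G055340 with miR5049: ccucugucucaaaauaacugu
Upstream, miR1862 at position 2574 (Allen 2), miR812q at 2578 (Allen 4.5) and miR5049 at 2580 (Allen 1) were listed in categories 2, 4 and 2, with p-values of 0.361, 1.00 and 0.387. None of these 3 sites holds CUCCGU.

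Most fully paired records had a high p-value. In ZD9, 44 records on 13 genes had an Allen score of 0, and their p-values ran from 0.0478 to 1 with a median of 0.872. In the whole XZ153 list, 42 records on 24 genes ran from 0.00430 to 1 with a median of 0.410, and 7 records on 7 genes were at or below 0.05. By family and gene pairs of any pairing, a different unit, 13 of 563 pairs of these families in that list had such a p-value at their best site. Over all names it was 202 of 22608 pairs, but the deposited p-value itself falls with better pairing. Category 4 held 30 of the 44 and 37 of the 42. The lowest value belonged to a single-read site, bdi-MIR5175a-p5_1ss18AG on HORVU2Hr1G059780 in XZ153 (deposited p-value 0.00430), which is outside the criterion because of category 4. The nearly fully paired site of osa-MIR1862a-p3 on HORVU4Hr1G066400 (Allen 0.5) had the same p-value and category.

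Raw reads, used for ZD9 only, were low at most sites. The 421 records held 1238 of the 34935 reads in the list, with a median of 1 and a highest value of 115. A single read was behind 67.5% of them (62.8 to 71.9%), against 66.2% for all other names. The share was lowest for miR1120, 44.0% of 25 records (24.4 to 65.1%), and highest for miR5175, 87.5% of 8 records (47.3 to 99.7%). Over 5 reads were found at 20 records on 9 genes. At the 91 well-paired records the reads summed to 179, with a highest value of 14 and a median of 1. The 66 well-paired records of the conserved families summed to 1285, with a highest value of 346 and a median of 3.

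The highest read counts belonged to sites that paired less well. osa-MIR1862d-p3_2ss11GA21TC was listed on HORVU0Hr1G016050 with 115 reads on isoform 4 (position 2370) and 112 on isoform 5 (2438). Both were category 0 at an Allen score of 5, with p-values of 0.478 and 0.475. The same cuts were category 0 in XZ153, with p-values of 0.306 and 0.304, and they were the only category 0 sites of the families listed in both libraries. One nucleotide upstream, a second miR1862 arm had 15 and 11 reads, and the miR1120 site 7 nt downstream on isoform 4 had 4.

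A miR5049 arm was listed on HORVU0Hr1G013890 with 70, 68 and 2 reads on isoforms 3, 2 and 1, at an Allen score of 13 and a p-value of 1.00. hvu-miR5049e was listed on HORVU2Hr1G019270 with 51, 48 and 39 reads on isoforms 2, 3 and 1, at an Allen score of 7, in category 2 and with p-values of 0.995 to 0.996. It was listed on all 3 isoforms in XZ153 as well, in categories 2 and 3. None of these 3 genes with the highest counts had a supported site.

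Further down, miR1120 reached 17 reads at position 1745 of HORVU1Hr1G089770 isoform 1 (category 0, Allen 5.5, deposited p-value 0.125). The fully paired miR1439 site that overlaps it, cut at 1743, had 5 reads (category 3, deposited p-value 0.621), and the miR812 site cut at 1744 had 5. The fully paired site was thus not the one with the most reads. Among well-paired sites the highest counts were on HORVU1Hr1G004150 isoform 1, where miR5049 arms were listed with 14 reads at 489 and 13 at 491, and miR1439 arms with 7 at 492 and 10 at 493, all at an Allen score of 2. Only position 489 was category 0 (deposited p-value 0.321).

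Some genes were marked by several of the families. In ZD9, 35 of 180 genes had sites of several families (19.4%, 13.9 to 25.99%), 4 families at most, and on 24 of the 35 the sites overlapped on 1 transcript. XZ153 had 13 of 95 such genes over the shared range (13.7%) and 56 of 486 in its whole list (11.5%, 8.82 to 14.7%), of which 27 had overlapping sites. A well-paired site was found on 16 of the 35 ZD9 genes with several families and on 12 of the other 145, and on 27 of 56 and 54 of 430 in the whole XZ153 list. Genes with more records have more chances of a low best score, and this was not adjusted for. The shares of genes with several families and with overlapping sites were not computed over all names. Over all names ZD9 held 7130 family and gene pairs on 2430 genes, against 231 pairs on 180 genes for these families. Marking by several families is therefore not shown to be particular to them.

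The pair seen together most was miR1439 with miR5049, on 12 ZD9 genes, which is 42.9% of the miR1439 genes and 17.4% of the miR5049 genes. In the whole XZ153 list it was 19 genes, 29.7% and 11.5%. miR1862 with miR5049 followed in ZD9 with 9 genes (22.5% and 13.0%), and 4 of the 7 miR5175 genes of ZD9 also had miR1439 sites. miR1120 shared no gene with miR1122 in either list, and miR5175 shared none with miR1862.

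**Figure D4:**
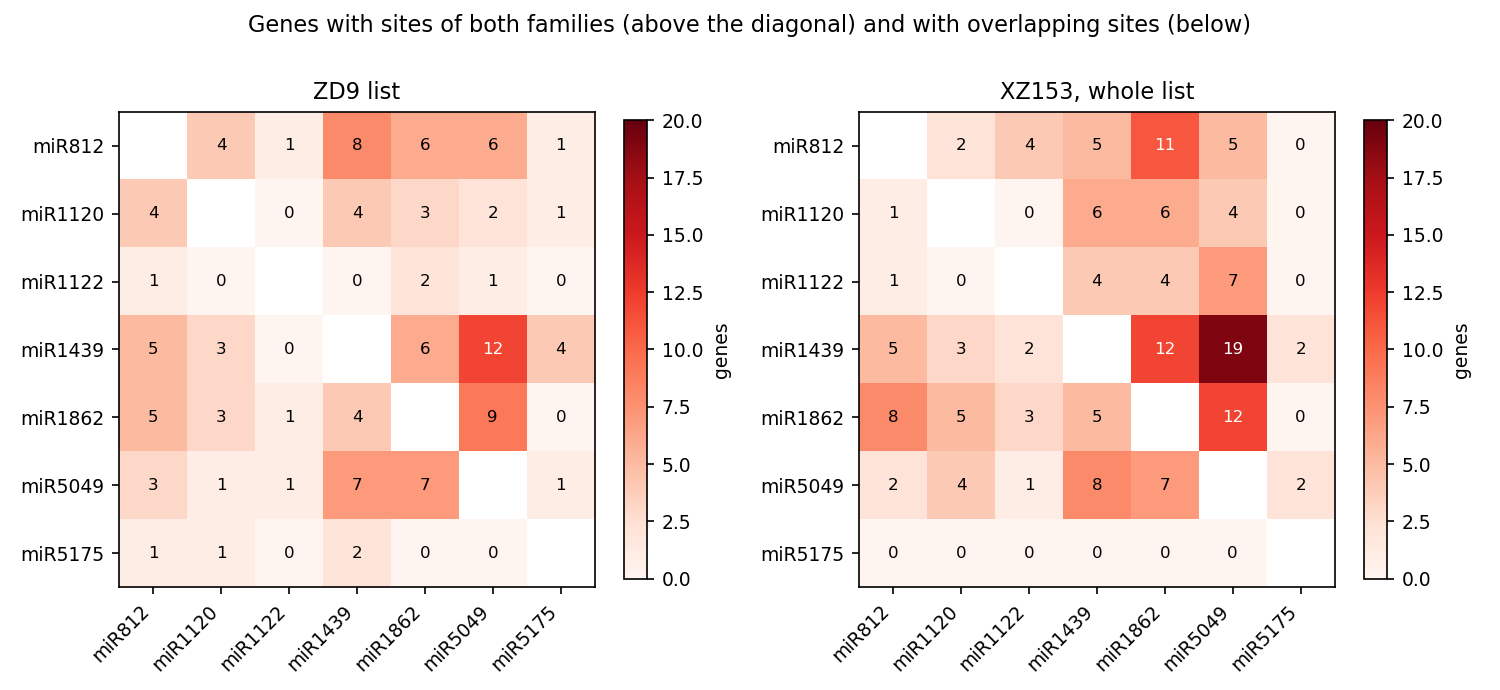
Genes with listed sites of both families of a pair (above the diagonal) and with sites that overlap on 1 transcript (below), in ZD9 and in the whole XZ153 list; both axes list the 7 families and colour gives the number of genes. The darkest cell in both lists is miR1439 with miR5049, 12 and 19 genes.

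Where families overlapped, the listed cuts stood side by side. This follows largely from the overlap, since the cut is placed opposite the middle of each small RNA. HORVU2Hr1G008380 isoform 9 is the fullest case in ZD9, with 6 positions of 4 families. miR1439 arms were at 229 (a shortened alignment), 237 and 238 with 1, 2 and 3 reads, and miR5175 was at 233 with 1. Sites of miR812 at 239 and miR1120 at 240 had 3 reads each. The fully paired miR1439 and miR5175 sites were in categories 4, 2, 2 and 4, and none of the 6 stood above the rest. HORVU1Hr1G025690 had the most records, 22 of 8 names and 4 families on 6 isoforms, with 1 to 4 reads at a site and a lowest p-value of 0.134. HORVU1Hr1G039790 had 12 records of 4 families with 1 or 2 reads each, the best being miR1862 at position 2929 of isoform 4 (category 1, deposited p-value 0.111).

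The widest overlap in XZ153 was on HORVU5Hr1G082630, where 5 families and 8 names were listed on 8 isoforms. On isoform 11 the 7 cuts lay between 788 and 796. miR1862 was at 788, miR5049 arms at 789 and 791, miR1439 arms at 792 and 794, miR812 at 795 and miR1120 at 796. Their Allen scores ran from 0 (miR1439 at 792, category 4) to 8, and no site of that isoform passed the p-value limit. Across ZD9, 28 genes had 2 or more listed positions of these families within 20 nt, and 10 had 3 or more. This was not counted over all names, and many names of these families are shifted windows of the same letters. Neighbouring positions are therefore not shown to be particular to them.

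**Figure D5:**
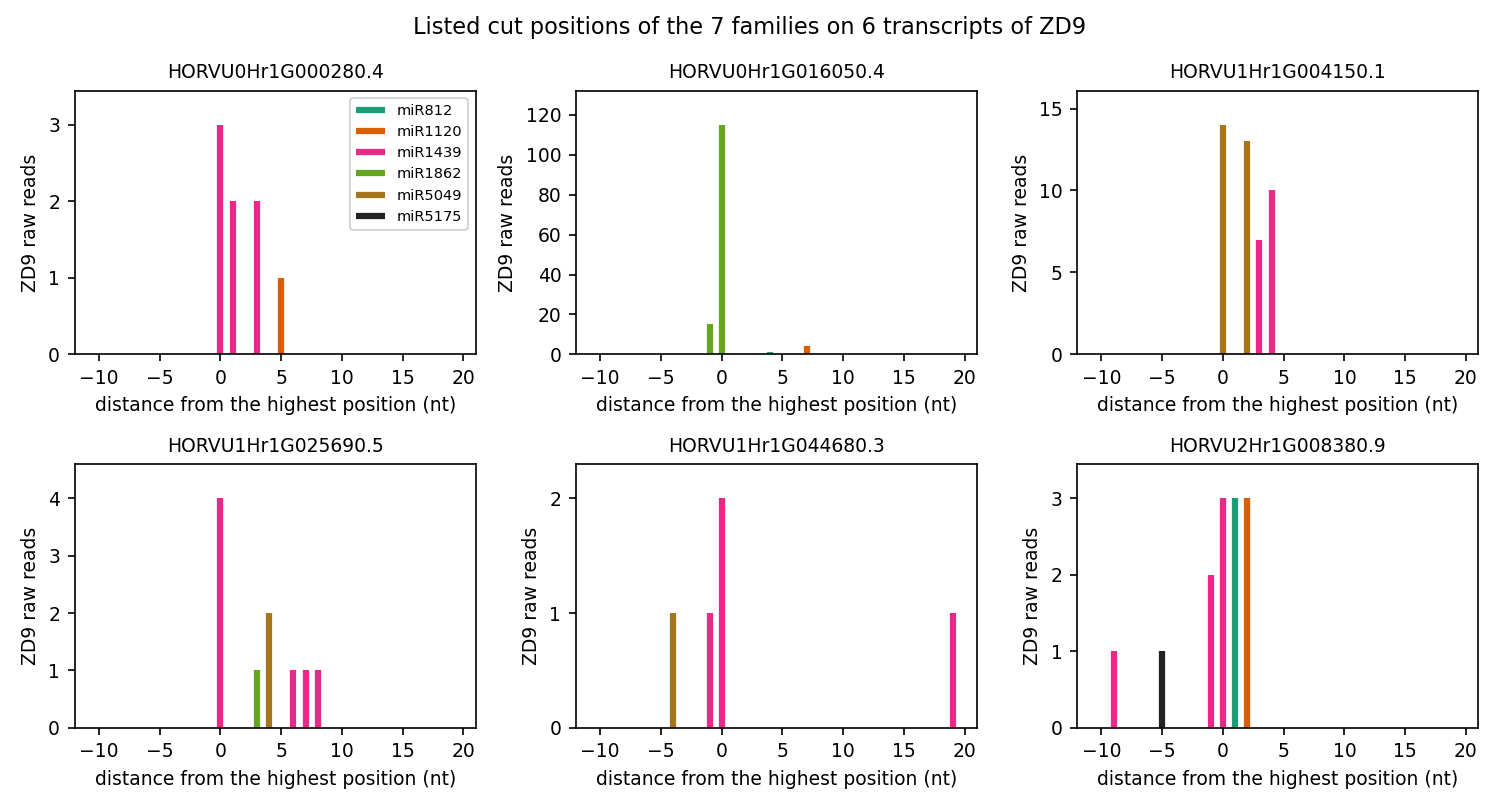
ZD9 raw reads (y axis, scaled per panel) at each listed cut of the 7 families on 6 transcripts, by distance from the position with most reads (x axis, nt), coloured by family. On HORVU0Hr1G016050.4 1 position with 115 reads stands above its neighbours, whereas on HORVU1Hr1G004150.1 4 neighbouring positions hold 7 to 14 reads and on HORVU2Hr1G008380.9 6 positions hold 1 to 3; the highest position of HORVU1Hr1G025690.5 is one of the records with only part of the small RNA.

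Recurrence of the same name at the same position was low between the libraries. Of the 421 ZD9 records, 49 had the same small RNA, transcript and position in XZ153 (11.6%, 8.74 to 15.1%), which is 28.8% of the 170 XZ153 records of the shared range. For all other names the share was 18.5% on the side of ZD9 (17.9 to 19.1%) and 34.1% on that of XZ153. Among sites with 1 read in ZD9 it was 5.28% against 10.01%, and among sites with more reads 24.8% against 35.01%. Names of similar letters can replace each other at a cut, which is then not counted as recurring. On HORVU0Hr1G004150 isoform 1, position 152 is listed under osa-MIR1862a-p3 in ZD9 and under osa-MIR1862d-p3_2ss11GA21TC in XZ153. Recurrence by position alone was not computed, so the lower record share is not shown to reflect the cuts themselves. Isoforms repeat a site, so these records are not independent and no test was made. By family and gene pairs, 59 of 231 recurred (25.5%, 20.0 to 31.7%), which is 51.8% of the XZ153 pairs, against 31.9% (30.8 to 33.0%) and 47.3% for all other names. The value of the repeat-like families was thus below that of the other names for the ZD9 pairs and above it for the XZ153 pairs. The intervals of the ZD9 shares overlap, and none was computed for the XZ153 shares, so no difference by pairs is claimed.

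By family, record recurrence ran from 0 of 8 for miR5175 and 4 of 68 for miR1439 to 18 of 110 for miR5049 (16.4%, 9.996 to 24.6%). Of the 49 recurring records 28 had the same category in both libraries, 12 of them category 4. At the gene level 55 genes were marked by the families in both libraries over the shared range, 30.6% of the ZD9 genes and 57.9% of the XZ153 genes. Gene overlap was not computed over all names, so these shares and the count that follows have no background beside them. Several of the families marked the same 8 genes in both libraries. In XZ153 the best category was 4 on 5 of them, HORVU1Hr1G025690 and HORVU1Hr1G039790 included, 2 on HORVU0Hr1G000280 and HORVU0Hr1G004150, and 0 on HORVU0Hr1G016050.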

How the data were processed

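Members and lists were chosen with earlier results of these data known. Each of 2 libraries (ZD9, XZ153) has 1 table in which a record is 1 small RNA, 1 transcript and 1 cut. Per the file headers, the tables are degradome target output with the site's category, an Allen score and a minimum free energy ratio deposited by the authors. The deposited p-value is unadjusted and compares no libraries. Per the file headers, ZD9 raw reads are counts per site; no read column was used for XZ153. Not given in the sources used here: program version, aligner, transcript release and build. Sequencing depth is unknown. ZD9 values end at HORVU2Hr1G036110.5, after which 1941 records have none; the XZ153 records up to that ID form the shared range. A further 3 ZD9 and 20 XZ153 lines are not analysed here.

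Records were selected by family number in the small RNA name. Isoforms were merged into genes by dropping the suffix of the ID, and a pair is 1 family with 1 gene. Well paired means an Allen score of at most 2.5, and supported means a p-value of at most 0.05 in category 0, 1 or 2. Target and small RNA letters were read from the deposited alignments. The comparison set was 26 conserved families, from miR156 to miR2118, of which 25 had records. All other names include this set. Sites named in the text were, for each family and library, those with the lowest p-value and the lowest Allen score, the 2 with most ZD9 reads, every supported pair, and the 5 genes with most families. Shares have exact Clopper-Pearson 95% intervals and cover counting error only. Alternatives changed the unit counted, the limits on Allen score, category and p-value, the names and the ID range. The steps for overlaps, motifs and common runs were tested on simulated data. Python 3.11.15, pandas 2.3.3, SciPy 1.17.1 and matplotlib 3.10.9 were used.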

Additional observations from a re-analysis of the deposited data

Results flagged for a closer look

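The ZD9 list names 43 more records of the repeat-like families, on 26 genes, for which the site and the small RNA are listed without values. They lie outside the measurements used above, and why they have no values is not stated. All 43 are present with values in the XZ153 list, where 8 are well paired and 1 is category 0. Of the 421 ZD9 records with values, 49 (11.6%) had the same small RNA, transcript and position in XZ153. The reason for this contrast was not tested, and whether the 43 records are ZD9 measurements is unknown. No ZD9 reads, categories or p-values of the 43 records are analysed here.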

How the results depend on the processing

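Over 37 alternatives to 14 results, 20 values stayed within 1.5 times the count or within the interval of the share, and 17 moved. Reversal of a result was not assessed. No paired analysis was possible because there is 1 library per cultivar, and no replicate could be left out. Counting transcripts in place of genes gave 333 in ZD9 and 149 in XZ153. Mature names alone gave 29 and 16 genes, well-paired shares of 3.45% and 0%, 1 gene with several families in each library and, in ZD9, 0 supported pairs. The whole XZ153 list gave 486 genes, 17 genes with category 0, 6 supported pairs and 56 genes with several families, by its longer ID range. Categories 0 to 2 in place of 0 gave 55 ZD9 and 20 XZ153 genes. A p-value limit of 0.01 left 0 supported pairs in ZD9. Recurrence by pairs was 25.5%. Allen score limits of 2 and 3.5 kept the well-paired shares at 15.0% and 19.4% in ZD9 and 14.7% and 16.8% in XZ153. Both alternatives chosen after seeing the data, leaving out records with part of the small RNA (15.1% and 14.9% well paired) and counting each site string once (motif in 29.4% and 23.9%), stayed inside the intervals. Most sites rest on 1 read, so categories 3 and 4 and their read counts have little precision.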
